A study of Mus musculus with 9 samples.

Results

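Chemokines are small secreted proteins that steer leukocytes by binding receptors on their surface, and dendritic cells (DC) use them to bring other immune cells close. The transcripts described here are 10 chemokine ligands, selected by gene name from the 39179 genes in the deposited count table: Ccl3, Ccl4, Ccl5, Ccl6, Ccl9, Ccl17, Ccl22, Cxcl9, Cxcl10 and Cxcl16. All 10 were found, and 9 of them passed the filter on low counts that left 13819 genes for testing. Ccl17 did not, and is given by its counts.

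The cells were DC from spleens of young adult C57BL/6J mice at steady state, with no stimulation, treatment or modified allele in any group. They were enriched and sorted into CD8pos cDC1, CD8neg cDC2 and plasmacytoid DC (pDC), and RNA was sequenced from 3 libraries per subset. Each replicate was a pool of 15 to 17 mice, so the spread between libraries is a spread between pools and not between single mice. Libraries with the same replicate number carry the same date code in the labels. Levels are read counts scaled to a common library size (CPM) and adjusted by edgeR's trimmed mean of M values (TMM), and fold changes come from edgeR's quasi-likelihood test with p adjusted over all genes tested.

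Conventional DC of type 1 (cDC1) take up dead cells and present antigen to CD8 T cells, cDC2 mainly activate CD4 T cells, and pDC are known for type I interferon. The ligands fall into groups by sequence and receptor. CCL3, CCL4 and CCL5 are inflammatory chemokines of the CC family, CCL6 and CCL9 act through CCR1, CCL17 and CCL22 bind CCR4, CXCL9 and CXCL10 bind CXCR3, and CXCL16, which is made as a membrane protein and shed by proteases, binds CXCR6. These receptors sit on natural killer (NK) cells, T cells, monocytes and other leukocytes. The measurements are of RNA, and secreted protein was not measured here.

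The libraries held 15806597 to 32453789 counts on genes, and replicate 3 had the lowest total in each subset. A marker of each subset fit its label. Xcr1, a cDC1 receptor, was at 929 to 947 CPM in cDC1 and at or below 64.9 CPM elsewhere. Itgam, which encodes CD11b, was at 221 to 248 CPM in cDC2 and at or below 15.8 CPM elsewhere. Siglech, a pDC lectin, was at 4330 to 5110 CPM in pDC and at or below 33.9 CPM elsewhere. Some other cDC markers were shared with pDC. Irf8 averaged 2556 CPM in cDC1 and 4244 CPM in pDC, Clec9a 624 and 252 CPM, and Cd8a 1434 and 338 CPM. Sirpa averaged 965 CPM in cDC2 and 520 CPM in pDC, and Irf4 69.5 and 53.1 CPM. Itgae, Clec4a4 and Esam averaged 1.04, 1.25 and 1.29 CPM in pDC. All 5 pDC markers were higher in pDC than in either cDC subset. The sum of 8 macrophage genes reached 500 to 703 CPM in cDC2. It was 164 to 243 CPM in cDC1 and 59.4 to 224 CPM in pDC, as described below. Transcripts of T cells and B cells were present at lower level than these cDC2 sums. The sum of 6 T cell genes was 12.5 to 18.9 CPM in cDC1, 29.8 to 42.0 CPM in cDC2 and 70.4 to 88.7 CPM in pDC, where Cd28 alone gave 52.7 to 67.5 CPM; without Cd28 the pDC sums were 15.7 to 21.2 CPM. Cd3d, Cd3e and Cd3g, which encode the CD3 chains that define T cells, summed to 0.656 to 1.38 CPM in cDC1, 1.21 to 5.05 CPM in cDC2 and 0.454 to 2.12 CPM in pDC, and the sum of 6 B cell genes did not exceed 51.6 CPM in any library.

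Together the 10 chemokines made up 0.0966 to 0.118% of all counts in cDC1, 0.0673 to 0.0773% in cDC2 and 0.00474 to 0.0158% in pDC. Their summed level was 995 to 1228 CPM in cDC1, 643 to 757 CPM in cDC2 and 45.7 to 160 CPM in pDC, with no overlap between subsets. In bulk libraries such as these, fewer cells making a transcript and less RNA per cell cannot be told apart. The make-up differed as well as the sum. Cxcl9 supplied 49.5 to 58.4% of the chemokine reads in cDC1, Ccl5 supplied 42.5 to 49.5% in cDC2, and in pDC the leading gene was Ccl6 in replicate 1 (31.3%) and Ccl4 in replicates 2 and 3 (33.9% and 46.6%).

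**Figure D1:**
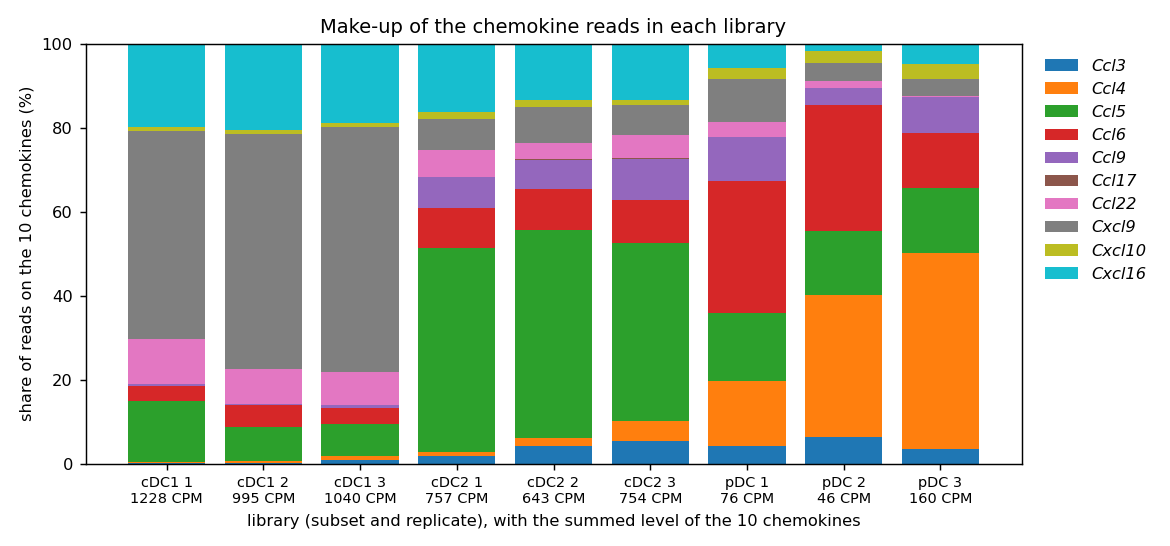
Share of the reads on the 10 chemokine genes (vertical axis, %) that fell on each gene, for each of the 9 libraries (horizontal axis, with the summed TMM-normalized level of the 10 genes). Cxcl9 takes 49.5 to 58.4% of each cDC1 bar and Ccl5 42.5 to 49.5% of each cDC2 bar, while the pDC bars rest on totals of 45.7 to 160 CPM.

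To compare genes with each other, levels were divided by a length for each gene, in kilobases. That length counts every base that lies in an exon of any annotated transcript of the gene. For Cxcl10 it is 2252 bases, the whole span of the gene, introns included. The level of Cxcl10 per kb may thus be understated, and its place in the orders below depends on that length. On that scale Cxcl9 was highest in cDC1, at 196 ± 9.41 CPM per kb (mean ± SD, n = 3), then Ccl5 at 117 ± 57.9 and Cxcl16 at 70.8 ± 8.31, whose spreads overlapped, then Ccl22 at 42.6 ± 12.8 and Ccl6 at 25.3 ± 3.21. Ccl4, Ccl3 and Cxcl10 followed at 4.67 to 9.08 CPM per kb with overlapping spreads, above Ccl9 and Ccl17. In cDC2, Ccl5 stood alone at 349 ± 28.5 CPM per kb. The next 7 genes, Ccl6, Ccl3, Cxcl16, Ccl4, Ccl9, Cxcl9 and Ccl22 in that order, lay between 16.6 and 39.7 CPM per kb, and no neighbours among them were apart by more than their spreads. In pDC the order began with Ccl4 at 51.3 ± 53.2, Ccl5 at 15.3 ± 9.46 and Ccl6 at 10.9 ± 2.96 CPM per kb, again with overlapping spreads, and every other member was at or below 5.09 CPM per kb.

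**Figure D2:**
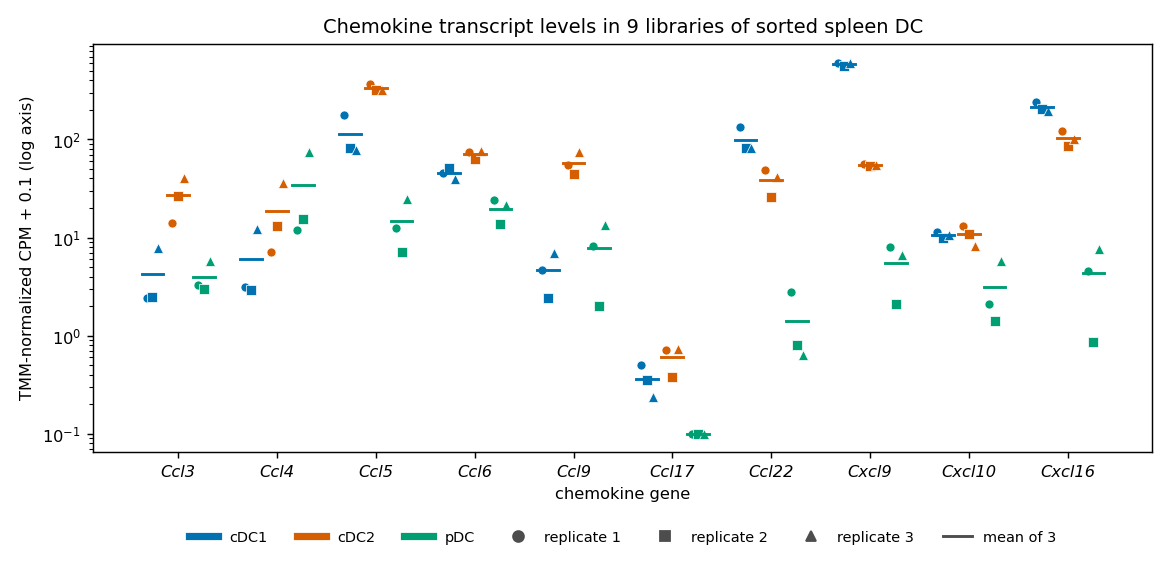
TMM-normalized CPM plus 0.1 (vertical log axis) of each chemokine gene in each library, coloured by subset and marked by replicate number, with a line at the mean of 3. The cDC1 points of Cxcl9 lie at 559 to 609 CPM, the cDC2 points of Ccl5 at 318 to 367 CPM, and the pDC points are lowest for Ccl5, Ccl6, Ccl17, Ccl22, Cxcl9, Cxcl10 and Cxcl16, all at or below 24.7 CPM.

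The comparisons between subsets were read against how often any gene differed. Between pDC and cDC1, 48.6% of the genes tested passed an adjusted p of 0.05 (24.3% higher in pDC and 24.4% lower). Of the 9 chemokines tested, 7 passed, with Ccl4 higher in pDC and Ccl5, Ccl6, Ccl22, Cxcl9, Cxcl10 and Cxcl16 lower. Between pDC and cDC2 the background was 45.8% (22.5% higher in pDC and 23.3% lower), and 8 of 9 chemokines passed, all lower in pDC; the other was Ccl4. Between cDC2 and cDC1 it was 24.4% (12.7% higher in cDC2 and 11.7% lower), and 6 of 9 passed, with Ccl3, Ccl5, Ccl6 and Ccl9 higher in cDC2 and Ccl22 and Cxcl9 lower. The median log2 difference over the 9 genes was -1.83 from cDC1 to pDC, -2.90 from cDC2 to pDC and 0.65 from cDC1 to cDC2, beside 0.02, -0.01 and 0.03 over all genes tested. The 3 comparisons share libraries, so their counts are not independent. The members were chosen with earlier results of these data known, so the counts describe them and are no test of the set. These counts come from the fit without the replicate number. With the replicate number added to the edgeR fit as a block, Ccl4 also passed between pDC and cDC2, higher in pDC (adjusted p = 0.0156). Between cDC2 and cDC1, Ccl4 (adjusted p = 0.000335) and Cxcl16 (adjusted p = 0.025) also passed under the block.

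**Figure D3:**
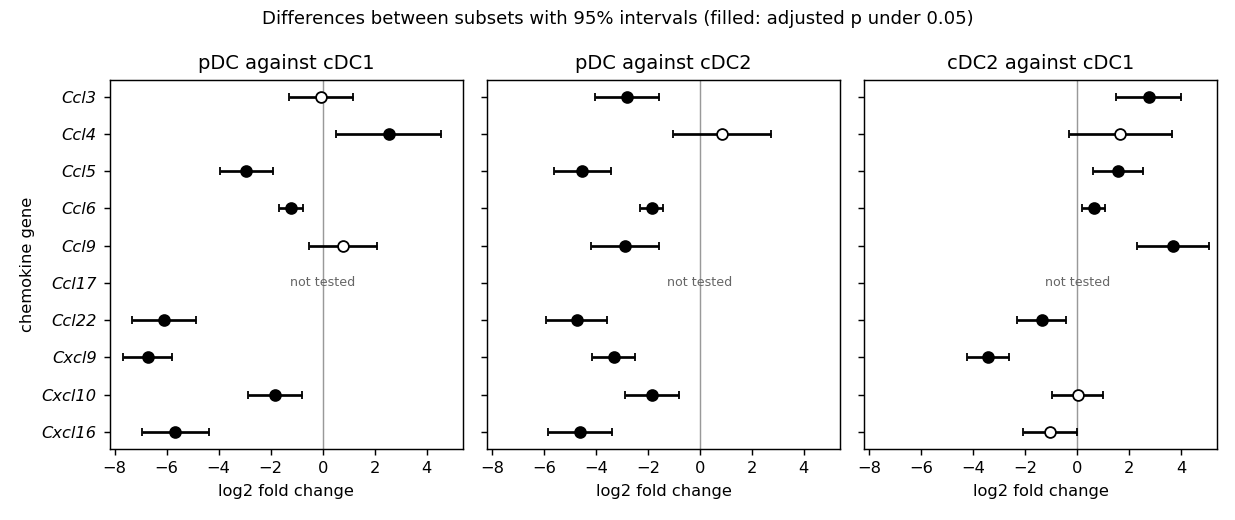
Log2 fold change (horizontal axis) of each chemokine gene in the 3 comparisons, first subset over second, with its 95% interval from edgeR. Filled points passed an adjusted p of 0.05. Cxcl9 has the largest difference between pDC and cDC1 (-6.74), Ccl9 the largest between cDC2 and cDC1 (3.69), and Ccl17 was not tested.

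CXCL9 and CXCL10 attract activated T cells and NK cells and are both known as genes that interferon induces. In these resting cells their transcripts followed different patterns. Cxcl9 was at 609, 559 and 607 CPM in cDC1 replicates 1 to 3, at 55.6, 54.0 and 55.3 CPM in cDC2, and at 7.87, 1.98 and 6.54 CPM in pDC. The 3 subsets were fully separated, and the cDC libraries of each subset lay close together. Cxcl9 was 10.8-fold higher in cDC1 than in cDC2 (log2 difference of cDC2 from cDC1 -3.43, SE 0.36, adjusted p = 9.8e-05). Its level in pDC was lower again, by a log2 difference of -6.74 (SE 0.42, adjusted p = 1.11e-06) from cDC1 and of -3.31 (SE 0.37, adjusted p = 5.6e-05) from cDC2.

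Cxcl10 did not share this ranking. It was at 11.2, 9.72 and 10.6 CPM in cDC1, at 13, 10.9 and 8.13 CPM in cDC2, and at 2.00, 1.32 and 5.71 CPM in pDC. The cDC values overlapped, with a log2 difference of 0.02 (95% interval -0.95 to 1.00, adjusted p = 0.981), an interval that leaves room for nearly a doubling either way. In pDC it was 3.55-fold lower than in cDC1 (adjusted p = 0.0084) and 3.61-fold lower than in cDC2 (adjusted p = 0.0083). Replicate 3 was the highest pDC library, and without it the log2 differences were -2.64 and -2.66 in place of -1.83 and -1.85. The ratio of Cxcl9 to Cxcl10 reads was 54.2 to 57.5 in the cDC1 libraries, 4.27 to 6.80 in the cDC2 libraries and 1.14 to 3.94 in the pDC libraries.

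Cxcl9 and Cxcl10 are close neighbours on chromosome 5, at chr5:92321347-92328079 and chr5:92346638-92348889 (GRCm38, minus strand), each with 4 exons. Their promoters are shown because their levels parted between cDC1 and cDC2. The sequences are the 250 bases before the start site on the gene's own strand, from RefSeq on GRCm38.p6, at chr5:92328080-92328329 and chr5:92348890-92349139. Capitals mark matches, on either strand, to GGGNNTTNCC (an NF-kB motif) and GAAANNGAAA (the interferon-stimulated response element, ISRE).
Cxcl9: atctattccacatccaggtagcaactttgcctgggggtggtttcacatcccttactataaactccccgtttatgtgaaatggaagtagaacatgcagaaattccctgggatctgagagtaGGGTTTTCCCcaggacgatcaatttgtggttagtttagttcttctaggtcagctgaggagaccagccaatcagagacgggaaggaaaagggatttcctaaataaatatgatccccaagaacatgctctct
Cxcl10: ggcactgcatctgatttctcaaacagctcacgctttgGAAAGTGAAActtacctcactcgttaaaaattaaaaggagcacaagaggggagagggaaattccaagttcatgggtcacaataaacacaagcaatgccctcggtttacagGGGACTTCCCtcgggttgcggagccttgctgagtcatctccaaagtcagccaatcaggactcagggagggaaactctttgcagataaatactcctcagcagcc
Cxcl9 held an NF-kB match, GGGTTTTCCC, beginning 130 bases before the start, and no match to the ISRE letters. Cxcl10 held GGGACTTCCC, beginning 103 bases before the start, and an ISRE match, GAAAGTGAAA, beginning 213 bases before it. The matches do not overlap. Of 32841 mouse promoters of the same length, 4.11% held the NF-kB letters and 2.98% the ISRE letters. Among the 7 chemokines with a promoter in the table, 3 held the NF-kB letters (Ccl9, Cxcl9 and Cxcl10) and 1 the ISRE letters. These matches describe the sequence, and factor binding was not measured here.

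Other interferon-induced genes mostly ran the other way from Cxcl9 between the cDC subsets. Of 8 such genes (Isg15, Ifit1, Ifit3, Rsad2, Gbp2, Irgm1, Oas1a and Mx1), 7 passed between the cDC subsets with a higher level in cDC2, and none with a lower, with a median log2 difference of 2.19. Ifit3, an antiviral protein, was at 1.88 to 2.91 CPM in cDC1 and 53.9 to 56.8 CPM in cDC2, the opposite order to Cxcl9. Gbp2, a GTPase that interferon-gamma induces, was at 26.1 to 37.4 CPM in cDC1 and 47.6 to 90.5 CPM in cDC2. The genes whose levels over the 9 libraries lay nearest to those of Cxcl9, among 8841 genes at a mean of 10 CPM or more, were Dbn1 (Pearson r = 0.997) and Gm8221 (r = 0.997). Those nearest to Cxcl10 were Suclg2 (r = 0.986) and Ptpn9 (r = 0.984). These r values were computed on log2(CPM + 1), describe libraries that differ in subset, and are mostly set by the differences between subsets.

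CCL17 and CCL22 draw CCR4-bearing T cells, and CCL22 is a known product of DC that have matured. Ccl22 was at 133, 82.4 and 81.4 CPM in cDC1, at 48.7, 25.6 and 41.4 CPM in cDC2, and at 2.66, 0.71 and 0.53 CPM in pDC. The subsets did not overlap. It was 2.57-fold lower in cDC2 than in cDC1 (log2 difference -1.36, SE 0.42, adjusted p = 0.0409), a call lost when any of the 6 cDC libraries was left out (adjusted p = 0.0523 to 0.157) and under scaling by library size only (adjusted p = 0.0567). Those fits had no block, and with the replicate number as a block Ccl22 passed between the cDC subsets (-1.37, adjusted p = 0.00109). In pDC it was 68.8-fold lower than in cDC1 (adjusted p = 1.04e-05) and 26.8-fold lower than in cDC2 (adjusted p = 5.08e-05). Without pDC replicate 1, the highest of the pDC libraries, the log2 differences were -7.30 and -5.93 in place of -6.11 and -4.74.

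Ccl17 was close to the floor of detection. It had 11, 6 and 2 counts in the cDC1 libraries, 19, 8 and 12 counts in the cDC2 libraries, and 0 counts in all 3 pDC libraries. A count of 0 allows up to 3 counts a library, or 0.140 CPM on average in pDC. Against that floor, Ccl17 was at least 1.87-fold higher in cDC1 and at least 3.63-fold higher in cDC2. When the filter on low counts was removed, edgeR gave adjusted p = 0.0125 and 0.00494 for these 2 differences and 0.625 for cDC2 against cDC1. Ccl22 had 64.9 to 601 times as many reads as Ccl17 in each cDC library.

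Both genes lie on chromosome 8, Ccl22 at chr8:94745590-94751699 and Ccl17 at chr8:94810453-94812036 (GRCm38, plus strand), each with 3 exons. Their promoters are shown, from RefSeq as above, because genes for ligands of the same receptor differed so widely in level. RefSeq starts Ccl22 inside the gene as GENCODE places it, so its window is shown only up to the GENCODE start, 156 bases at chr8:94745434-94745589. The Ccl17 window is chr8:94810203-94810452, and capitals mark TTCNNNGAA, the gamma-activated site bound by STAT proteins.
Ccl22: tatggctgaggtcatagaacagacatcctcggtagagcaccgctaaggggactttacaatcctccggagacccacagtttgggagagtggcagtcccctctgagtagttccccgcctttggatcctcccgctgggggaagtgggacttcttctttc
Ccl17: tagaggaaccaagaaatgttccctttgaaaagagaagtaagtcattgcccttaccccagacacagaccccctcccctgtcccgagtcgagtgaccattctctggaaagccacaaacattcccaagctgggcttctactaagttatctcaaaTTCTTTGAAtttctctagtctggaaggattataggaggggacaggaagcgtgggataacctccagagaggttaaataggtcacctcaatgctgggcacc
Ccl17 held a match to these letters, TTCTTTGAA, beginning 99 bases before the start, as did 7.02% of all promoters. The whole 250-base Ccl22 window held none of the 3 motifs searched.

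Ccl22 and genes of mature DC both varied between cDC pools, with the same order of replicates in cDC2 but not in cDC1. The summed level of 8 mature DC genes (Ccr7, Fscn1, Socs2, Cacnb3, Nudt17, Il4i1, Cd40 and Il12b) was 1074, 628 and 719 CPM in cDC1 and 1153, 825 and 1031 CPM in cDC2, none of them at or under 3 counts. Within cDC1 the library with the highest sum was also the highest for Ccl22 and Ccl5. The sum was lowest in cDC1 replicate 2, though, while Ccl22 was at 82.4 CPM there and at 81.4 CPM in replicate 3. Within cDC2 the order of the sums was the order of Ccl22. All 8 genes were lower in pDC than in either cDC subset, at a sum of 41.7 to 73.0 CPM. Between cDC2 and cDC1 only Il4i1 (higher in cDC2) and Il12b (lower) passed, so most of the list did not follow the lower Ccl22 of cDC2. What part mature cells have in the Ccl22 levels was not tested. The genes nearest to Ccl22 over the 9 libraries were Jup (r = 0.994) and Apol7c (r = 0.992), the latter at 1147 CPM in cDC1, 259 CPM in cDC2 and 9.39 CPM in pDC on average.

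CXCL16 serves both as a chemoattractant for CXCR6-bearing T cells and as a scavenger receptor for oxidized lipids. Cxcl16 was at 243, 203 and 196 CPM in cDC1, at 122, 86.4 and 101 CPM in cDC2, and at 4.42, 0.76 and 7.48 CPM in pDC. Every cDC1 library was above every cDC2 library, and every cDC2 library above every pDC library. The difference between cDC2 and cDC1, 2.08-fold, did not pass when all 9 libraries were fitted together (log2 difference -1.06, SE 0.46, adjusted p = 0.138), but did with the replicate number as a block (-1.07, adjusted p = 0.025). It also passed with only the 6 cDC libraries (adjusted p = 0.00181) and without pDC replicate 2 (adjusted p = 0.00431), in which Cxcl16 had 15 reads. In pDC Cxcl16 was 51.1-fold lower than in cDC1 (adjusted p = 2.58e-05) and 24.6-fold lower than in cDC2 (adjusted p = 8.99e-05). Without pDC replicate 3 these log2 differences were -6.27 and -5.21 in place of -5.68 and -4.62.

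Cxcl16 lies at chr11:70453983-70459984 (GRCm38, minus strand), with 5 exons, and 18.3% of its exon bases overlap exons of Zmynd15 on the other strand. Zmynd15 itself had 163 to 582 counts in the cDC1 libraries, 179 to 379 in the cDC2 libraries and 0 to 10 in the pDC libraries. The sources used here do not state whether counting used the strand, so part of either gene's reads may belong to the other. The size of that part was not tested. Cxcl10 overlaps Art3 over 5.91% of its exon bases, with 0 to 18 counts of Art3. No other member overlaps another gene's exons, and no 75-base stretch of any member's transcripts occurs in another gene's transcripts.

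The proteases that process these ligands also differed. Adam10, which sheds CXCL16 from the cell surface, was lowest in cDC1 (92.2 to 96.0 CPM), intermediate in cDC2 (126 to 140 CPM) and highest in pDC (194 to 232 CPM), and all 3 differences passed. Adam17 passed in none of the 3, at 119 to 163 CPM. Dpp4, which trims the amino end of CXCL10 and CCL22 among others, was at 487 to 523 CPM in cDC1, 424 to 498 CPM in cDC2 and 201 to 234 CPM in pDC, lower in pDC than in cDC1 (adjusted p = 7.43e-06) and cDC2 (adjusted p = 2.54e-05).

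CCL3, CCL4 and CCL5 recruit T cells, NK cells and monocytes. Their genes lie in a cluster on chromosome 11 with Ccl6 and Ccl9, in the order Ccl5 (chr11:83525778-83530518), Ccl9 (chr11:83572919-83578636), Ccl6 (chr11:83587882-83593087), Ccl3 (chr11:83647844-83649355) and Ccl4 (chr11:83662584-83664683), with Ccl4 alone on the plus strand. Ccl5 was the leading chemokine of cDC2. It was at 367, 318 and 321 CPM in cDC2, at 177, 82.1 and 78.4 CPM in cDC1, and at 12.4, 6.94 and 24.7 CPM in pDC, with no overlap. In cDC2 it was 2.98-fold higher than in cDC1 (log2 difference 1.58, SE 0.43, adjusted p = 0.0232), higher in 3 of 3 replicate numbers. That call was lost without cDC2 replicate 1, 2 or 3 or without cDC1 replicate 2 or 3 (adjusted p = 0.0535 to 0.0894). In pDC Ccl5 was 7.70-fold lower than in cDC1 (adjusted p = 0.000468) and 23.0-fold lower than in cDC2 (adjusted p = 4.5e-05).

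Ccl3 and Ccl4 encode close relatives. Within each replicate number, Ccl3 was highest in cDC2 and Ccl4 in pDC, though the Ccl4 levels of these subsets overlapped. Ccl3 was at 2.33, 2.38 and 7.72 CPM in cDC1, at 14.1, 26.6 and 40.8 CPM in cDC2, and at 3.21, 2.89 and 5.6 CPM in pDC. All cDC2 libraries were above all others, while cDC1 and pDC overlapped. Ccl3 was 6.72-fold higher in cDC2 than in cDC1 (log2 difference 2.75, SE 0.55, adjusted p = 0.00513; 3.49 without cDC1 replicate 3) and 7.0-fold higher than in pDC (adjusted p = 0.00225). Between pDC and cDC1 its log2 difference was -0.06 (95% interval -1.29 to 1.17, adjusted p = 0.938).

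Ccl4 was at 3.02, 2.84 and 12.1 CPM in cDC1, at 7.01, 13.1 and 35.7 CPM in cDC2, and at 11.8, 15.5 and 74.4 CPM in pDC. The groups overlapped, and replicate 3 was far above the others in each subset. Within each replicate number the order was the same, with pDC highest and cDC1 lowest: pDC held 3.90, 5.45 and 6.14 times the cDC1 level and 1.68, 1.18 and 2.08 times the cDC2 level. Over all 9 libraries only pDC against cDC1 passed (5.80-fold, log2 difference 2.54, SE 0.90, adjusted p = 0.0414), and that call was lost with limma-voom (adjusted p = 0.0796) and in the fit of the 6 libraries compared (adjusted p = 0.0506). It was also lost without cDC1 replicate 1 (adjusted p = 0.129), cDC1 replicate 2 (adjusted p = 0.124), cDC2 replicate 2 (adjusted p = 0.0549) or pDC replicate 3 (log2 difference 1.23, adjusted p = 0.21), and with replicate 2 as the only pDC library (1.38, adjusted p = 0.298). Without cDC1 replicate 3 the log2 difference was 3.48.

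With the replicate number as a block, all 3 differences in Ccl4 passed: pDC exceeded cDC1 by a log2 of 2.35 (adjusted p = 1.66e-05) and cDC2 by 0.68 (adjusted p = 0.0156), and cDC2 exceeded cDC1 by 1.67 (adjusted p = 0.000335). Without the block, the last 2 were 0.87 (95% interval -1.02 to 2.76, adjusted p = 0.442) and 1.67 (95% interval -0.32 to 3.66, adjusted p = 0.222). Without pDC replicate 3 and without the block, Ccl4 was lower in pDC than in cDC2, by a log2 difference of -0.44 (adjusted p = 0.667). Without replicate 3 of every subset and with the block, the 3 log2 differences were 2.16 (adjusted p = 0.000134), 0.47 (adjusted p = 0.064) and 1.69 (adjusted p = 0.000995). The ratio of Ccl3 to Ccl4 reads was 0.637 to 0.838 in cDC1, 1.14 to 2.02 in cDC2 and 0.0752 to 0.272 in pDC.

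Replicate 3 was higher than the mean of replicates 1 and 2 for Ccl4 in every subset, by 1.74 (cDC1), 1.79 (cDC2) and 2.38 (pDC) on the log2(CPM + 1) scale, and for Ccl3 by 1.38, 1.04 and 0.71. Ccl9 was higher there too, by 0.85, 0.56 and 1.49. Ccl22 and Cxcl9 in the cDC subsets moved by no more than 0.36 either way. The same libraries had the highest sums of 12 immediate-early and heat-shock genes, such as Fos, Jun and Hspa1a, which rise quickly in handled or stimulated cells: 7319 against 2285 and 3488 CPM in cDC1, 7521 against 4088 and 4291 CPM in cDC2, and 4875 against 2013 and 2013 CPM in pDC. They were also highest for the sum of 8 NK cell genes (such as Ncr1, Gzma and Prf1), at 34.2 CPM in cDC1, 105 CPM in cDC2 and 52.1 CPM in pDC, against 11.2 to 42.7 CPM in replicates 1 and 2. None of the genes of either list was at or under 3 counts in any subset. The part of either list in the Ccl3 and Ccl4 levels was not tested.

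**Figure D4:**
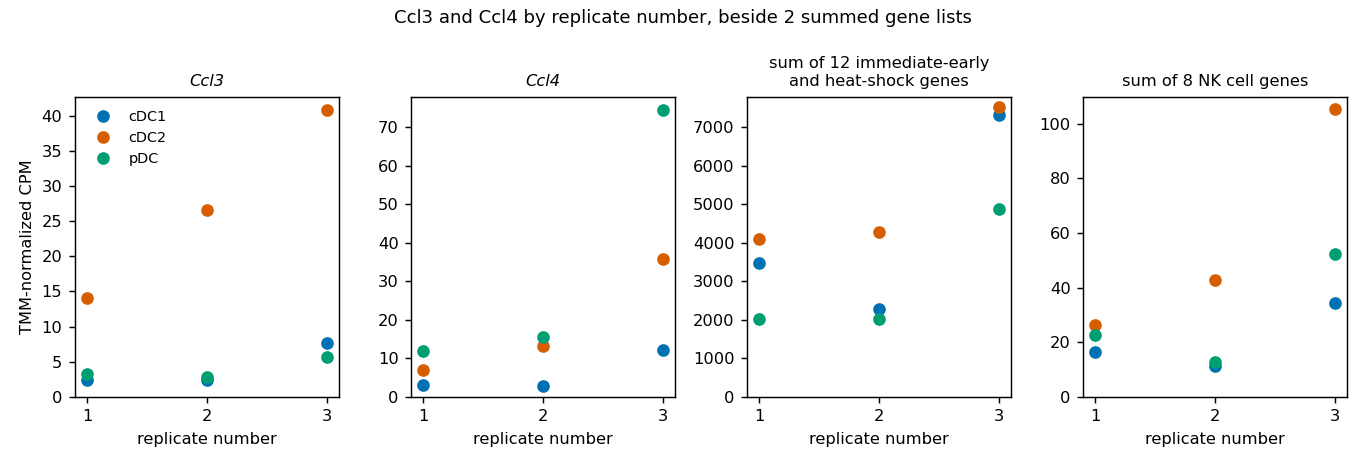
TMM-normalized CPM (vertical axes, from 0) of Ccl3, Ccl4, the sum of 12 immediate-early and heat-shock genes and the sum of 8 NK cell genes, by replicate number (horizontal axes) and subset (colour). Replicate 3 is the highest in every subset in all 4 panels, with Ccl4 at 74.4 CPM in pDC and 35.7 CPM in cDC2.

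CCL6 and CCL9 are myeloid chemokines that act through CCR1, and Ccl6 was well detected in every library. It was at 45.8, 51.0 and 39.6 CPM in cDC1, at 73.7, 63.3 and 76.6 CPM in cDC2, and at 23.9, 13.7 and 21.2 CPM in pDC, with no overlap. It was 2.32-fold lower in pDC than in cDC1 (adjusted p = 0.000701) and 3.62-fold lower than in cDC2 (adjusted p = 4.91e-05). The 1.56-fold higher level in cDC2 than in cDC1 passed (log2 difference 0.65, SE 0.20, adjusted p = 0.0379), and was lost when any of the 6 cDC libraries was left out (adjusted p = 0.0565 to 0.142) and without replicate 3 of every subset (adjusted p = 0.157).

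Ccl9 was a cDC2 transcript among these subsets. It was at 55.3, 44.7 and 73.8 CPM in cDC2, at 4.55, 2.34 and 6.77 CPM in cDC1, and at 8.05, 1.93 and 13.4 CPM in pDC. All cDC2 libraries were far above the others, and cDC1 and pDC overlapped. Ccl9 was 12.9-fold higher in cDC2 than in cDC1 (log2 difference 3.69, SE 0.61, adjusted p = 0.00175) and 7.45-fold higher than in pDC (adjusted p = 0.0026; log2 difference -3.48 without pDC replicate 3, against -2.90). Only 1.87% of the genes tested had a larger difference between cDC2 and cDC1. Between pDC and cDC1 its log2 difference was 0.79 (95% interval -0.52 to 2.11, adjusted p = 0.295), and 1.23 without pDC replicate 2 (adjusted p = 0.0366). Its nearest gene over the 9 libraries was Cd300lb, a myeloid receptor (r = 0.985), at 2.08 CPM in cDC1, 31.9 CPM in cDC2 and 3.53 CPM in pDC on average.

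Macrophage genes were also higher in the cDC2 libraries. Of 8 (Adgre1, Vcam1, Spic, Hmox1, C1qa, C1qb, C1qc and Cd5l), 5 passed with a higher level in cDC2 when the cDC subsets were compared, and their sum was 500 to 703 CPM in cDC2, 164 to 243 CPM in cDC1 and 59.4 to 224 CPM in pDC. Adgre1 alone supplied 308 to 390 CPM of the cDC2 sums, and without it the sums were 191 to 369 CPM in cDC2 and 157 to 225 CPM in cDC1, which overlap. Vcam1, Hmox1 and Cd5l did not pass. None of the 8 was at or under 3 counts in any subset. Within cDC2, Ccl9 and Ccl6 were lowest in replicate 2, as was the macrophage sum. The sum was highest in replicate 1 (703 CPM, against 689 CPM in replicate 3), while Ccl9 and Ccl6 were highest in replicate 3. Ccl5 had the order of the sum, and Ccl3 was lowest in replicate 1. Of the 8 NK cell genes, Klra4 and Ncr1 were higher in cDC2 than in cDC1. The part of macrophages or NK cells in the higher Ccl3, Ccl5, Ccl6 and Ccl9 of cDC2 was not tested.

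The low chemokine levels of pDC differed between its 3 libraries. Replicate 2 was the lowest for Ccl3, Ccl5, Ccl6, Ccl9, Cxcl9, Cxcl10 and Cxcl16, and the mean of the other pDC libraries was 7.83 times its level for Cxcl16, 5.58 times for Ccl9, 3.65 times for Cxcl9 and 2.67 times for Ccl5. That library was also the lowest for the macrophage sum (59.4 CPM against 196 and 224 CPM), for 8 neutrophil genes (5.58 CPM against 42.9 and 54.7 CPM), for the mature DC sum (41.7 CPM against 69.0 and 73.0 CPM) and for the cDC genes Xcr1 (1.37 CPM against 8.90 and 3.65 CPM) and Itgam (6.64 CPM against 13.7 and 13.4 CPM). Of 10 cDC marker genes, 6 were lowest in it (Cd8a, Clec4a4, Irf4 and Esam as well), but Clec9a, Irf8, Itgae and Sirpa were not. Of 5 pDC genes, Siglech, Bst2 and Tcf4 were highest in it, Ccr9 lay between the others (1184 CPM against 1431 and 1165 CPM) and Ly6d was lowest (1546 CPM against 1773 and 1726 CPM). Of the 8 neutrophil genes, 1 was at or under 3 counts in pDC. With replicate 2 as the only pDC library, assumed to vary like the others, the log2 differences from cDC1 were -8.26 for Cxcl9, -8.16 for Cxcl16 and -4.06 for Ccl5, in place of -6.74, -5.68 and -2.94. The difference of Ccl9 then reversed, from 0.79 to -1.24 (adjusted p = 0.145). The part of other cells in the pDC levels was not tested.

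**Figure D5:**
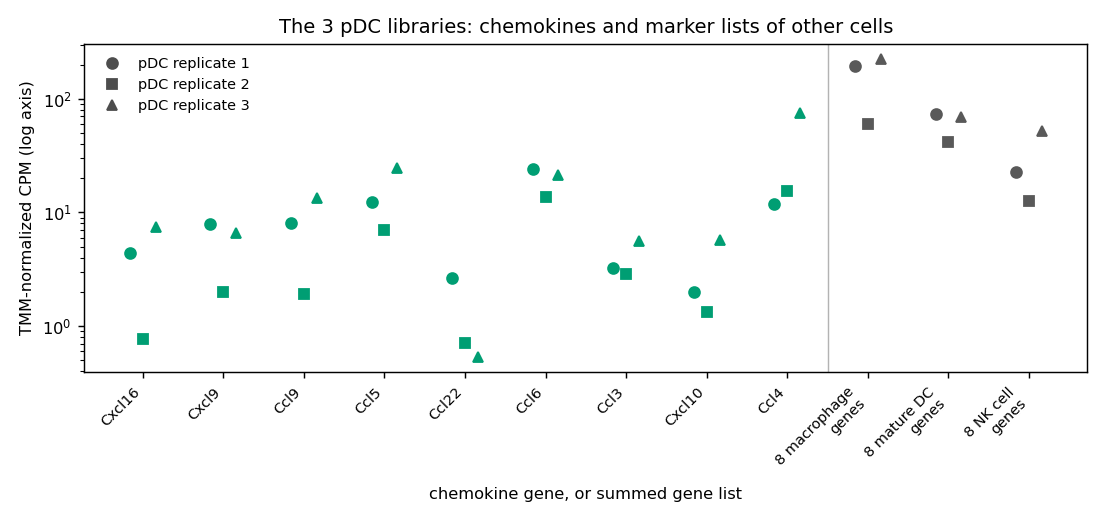
TMM-normalized CPM (vertical log axis) in the 3 pDC libraries, marked by replicate number, of 9 chemokines and, to the right of the line, of the sums of 8 macrophage, 8 mature DC and 8 NK cell genes. Replicate 2 (squares) is lowest for Cxcl16 at 0.76 CPM, Cxcl9 at 1.98 CPM and Ccl9 at 1.93 CPM, and for all 3 sums.

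The rest of the chemokine family was hardly expressed. A list of 28 other chemokine ligands had a summed level of 5.47 to 11.9 CPM a library, and 9 of them passed the filter. Ccl2, a monocyte attractant, and Cx3cl1, a membrane-bound chemokine, were lower in pDC than in both cDC subsets, and none passed between cDC2 and cDC1 with edgeR (2 had an unadjusted p under 0.05, and 2 passed with DESeq2). Ccl2 was at 0.33, 0.21 and 1.69 CPM in cDC1, at 0.48, 0.63 and 0.96 CPM in cDC2, and had 0 counts in pDC. Its mean was thus at least 5.31-fold and 4.92-fold higher in cDC1 and cDC2, respectively. Cx3cl1 was at 2.95, 1.92 and 0.95 CPM in cDC1 and at or below 0.77 CPM in every other library. Xcl1, a ligand that NK cells and T cells make for XCR1, was at 0.73, 3.57 and 7.65 CPM in the cDC2 libraries, in the same order as the NK cell gene Ncr1 at 2.33, 6.51 and 10.4 CPM.

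Among receptors of these ligands, Cxcr3, which binds CXCL9 and CXCL10, passed in all 3 comparisons. It was at 119 to 150 CPM in pDC, 56.4 to 82.1 CPM in cDC1 and 6.88 to 10.6 CPM in cDC2, and was thus highest in pDC, where Cxcl9 was lowest. Ccr1 and Ccr3 passed in none, at 2.42 to 7.42 and 1.38 to 12.6 CPM, and Cxcr6 did not exceed 0.70 CPM in any library.

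Among themselves, the members with the most alike levels over the 9 libraries were Ccl22 and Cxcl16 (r = 0.966) and Ccl5 and Ccl6 (r = 0.966). Next came Ccl22 and Cxcl9 (r = 0.94), Cxcl10 and Cxcl16 (r = 0.937), Cxcl9 and Cxcl16 (r = 0.932) and Ccl3 and Ccl9 (r = 0.922). Ccl4 was unlike the cDC1 ligands, with r = -0.645 to Ccl22 and -0.632 to Cxcl9. These r values again describe the order of the subsets over libraries that share pools, and carry no test.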

How the data were processed

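RNA was sequenced from 9 libraries of sorted spleen DC, 3 per subset, with a stranded mRNA kit and single 75-base reads. The authors deposited raw read counts per gene, not normalized. The submitters' processing notes name STAR, SAMtools, MultiQC, featureCounts and the build mm10, without versions; the annotation and the use of strand in counting are not given in the sources used here. Groups and replicate numbers come from the labels. Members and gene lists were chosen with earlier results of these data known.

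The deposited counts went into edgeR 4.0.16 (R 4.3.3): filterByExpr (minimum count 10), TMM scaling, and the quasi-likelihood test over all 9 libraries with the subset as the only term. P-values were adjusted by Benjamini-Hochberg over 13819 genes, at a threshold of 0.05. Replicate numbers were taken to pair libraries, because they share a date code in the labels and because deviations from the subset means correlated in all 9 same-numbered pairs (r from 0.266 to 0.543). No 2 libraries agreed within sampling noise. Alternatives were other scalings, filters and tests (limma 3.58.1, DESeq2 1.42.0), the replicate block, fewer libraries and a fold limit. The test was also tried on simulated data. A result on the receptor list is not reported here. Named genes are the members, other chemokine ligands, receptors, proteases, list genes on which a result turns, and the nearest genes by correlation over libraries. Positions and exons come from GENCODE M21 on GRCm38, with the number of exons taken from the principal transcript. Promoters come from RefSeq, in which 7 of 10 members matched and Ccl4, Ccl5 and Cxcl16 did not.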

Additional observations from a re-analysis of the deposited data

How the results depend on the processing

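The differences of Ccl5, Ccl6, Ccl22, Cxcl9, Cxcl10 and Cxcl16 between pDC and both cDC subsets, of Ccl3 and Ccl9 between cDC2 and both other subsets, and of Cxcl9 between cDC2 and cDC1 passed under every alternative that gave a value. Leaving out each library in turn, 6 to 9 members passed between pDC and cDC1, 8 to 9 between pDC and cDC2 and 3 to 7 between the cDC subsets; for the other chemokines, in that order, 2 to 4, 0 to 3 and 0 to 2 passed, and for all genes 5422 to 7106, 4981 to 6689 and 2451 to 4100. With fewer libraries or no filter, Ccl17 could enter the test and these counts. The replicate block changed the calls of Ccl4 (pDC and cDC1, each against cDC2) and Cxcl16 (cDC2 against cDC1), given above, and no other call of a member. Where 1 pDC library was left, it was assumed to vary like the others; that fit and the block without replicate 3 were chosen after seeing the data.

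Sign changes occurred in differences that passed under no alternative run or, for Ccl4 and Ccl9, in a single alternative. For Ccl3, pDC against cDC1, the log2 difference turned positive with library size only (0.035), limma-voom (0.21), the replicate block (0.080), without pDC replicate 1 (0.07), pDC replicate 2 (0.09) or cDC1 replicate 3 (0.67), without replicate 3 of every subset (0.35), and with the block as well (0.39), over a range of -0.38 to 0.67 with each library left out. For Cxcl10, cDC2 against cDC1, it turned negative with upper quartile factors (-0.0032), without cDC2 replicate 1 (-0.15), cDC2 replicate 2 (-0.0035), cDC1 replicate 2 (-0.03) or cDC1 replicate 3 (-0.0014), the highest value with a library left out being 0.15. For Ccl4, pDC against cDC2, which passed only under the block, it ranged from -0.44 without pDC replicate 3 to 1.73 without cDC2 replicate 3, and was -0.27 without pDC replicates 1 and 3, while Ccl9, pDC against cDC1, was -1.24 in the latter. The causes were not tested.

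Among the other chemokines, cDC2 against cDC1 gave 2 calls with DESeq2, 1 with the 6 libraries compared and 2 without replicate 3 of every subset, with or without the block. With at least 10 counts in every library, 0 passed against pDC in either comparison, since fewer genes were tested; the 6 libraries compared gave 1 and 1. Without replicate 3 of every subset, 4 (pDC against cDC1) and 5 (pDC against cDC2) passed, and 5 and 6 with the block; with replicate 2 as the only pDC library, 0 passed against cDC2. Over all genes, cDC2 against cDC1 gave 5356 calls without replicate 3, and 6757 with the block as well, when pDC against cDC2 gave 9571. A log2 fold change of at least 1 left 4063 genes between pDC and cDC1, 3837 between pDC and cDC2 and 1812 between cDC2 and cDC1. Scaling by library size only put the median log2 difference of all genes at 0.11 for pDC against cDC1 and 0.14 for cDC2 against cDC1, against 0.02 and 0.03 with TMM; in the latter comparison 63.1% of calls were then higher in cDC2, against 52.2% with TMM. Counting depth limits Ccl17, Ccl22 in pDC (9 to 88 counts) and Cxcl16 in pDC (15 to 146 counts).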
